A study of Mus musculus with 4 samples.

Results

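Cholesterol synthesis, uptake and its control were followed through 29 genes in cultured mouse keratinocytes, the barrier-forming cells of the epidermis. The genes were listed by their function, and the list was chosen with earlier results of these data known. The probes of these genes were all non-control spots of the arrays that carry 1 of the gene names. The genes have 42 of the 39429 probes and are 29 of the 30342 genes or other targets measured. The list holds 17 synthesis enzymes, 5 genes that control synthesis, 4 that move or store cholesterol inside the cell, and 3 for cholesterol export and breakdown of lipoprotein receptors. Keratinocytes came from whole skin of newborn C57BL/6 mice, either Pla2g2f+/+ or lacking Pla2g2f (Pla2g2f-/-), a gene for a secreted phospholipase A2 of the epidermis. The skin was digested with 0.05% collagenase A, the cells were kept in culture for 3 days, and they then spent 48 h with or without 1 mM CaCl2, which sets off differentiation. Each of the 4 combinations was measured on 1 single-colour array, from RNA pooled over 6 mice of that genotype. No group has a replicate, so no difference was tested. Genotype cannot be told apart from the pools of mice and the cell preparations it came from.

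Cells make cholesterol from acetyl-CoA through mevalonate, isoprenoids, squalene and lanosterol. When sterol in the endoplasmic reticulum runs low, SCAP carries the SREBP transcription factors to the Golgi for cleavage, and the freed factors switch on the synthesis enzymes and lipoprotein uptake; INSIG proteins hold the complex back when sterol is plentiful. Oxysterols activate the nuclear receptors LXR alpha and LXR beta, which switch on export pumps, the receptor-degrading ligase MYLIP and Srebf1. In epidermis, cholesterol is, with ceramides and free fatty acids, a main lipid of the barrier between cornified cells.

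Levels are log2 of a probe's signal over the 75th percentile of its own array, so 0 is the brightness of that percentile, and differences between arrays are log2 differences of these levels. A run of 4 levels is given in the order +/+ without calcium, +/+ with calcium, -/- without calcium, -/- with calcium. Levels were compared only between arrays, since probes differ in brightness for the same amount of RNA. The scanner's own signal error came to 0.14 for a member's level, to between 0.20 and 0.22 for a difference between arrays and to 0.29 for a difference of calcium responses. It holds no spread between cultures or mice. The 75th percentile signal lay between 2638 and 3299 units, 67.0% to 68.6% of probes were well above background, and no member's probe was saturated. On each of the 4 arrays, the probes read for all 29 members gave signals well over background.

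Pla2g2f itself was read at -3.35 and -3.04 in +/+ cells and at -3.78 and -3.53 in -/- cells. The -/- arrays were at 74.2% of +/+ without calcium and 71.1% with it, differences of -0.43 and -0.49. Which part of the gene is deleted is not given in the sources used here, so this probe does not check the genotype labels. The basal keratins Krt5 (7.22, 7.29, 7.01, 6.72) and Krt14 (6.58, 6.59, 6.11, 6.06) were bright on every array.

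The -/- arrays also carried more signal of other skin cell types, which bears on each genotype value below. The summed signal of 6 adipocyte markers, in multiples of the array's 75th percentile, was 37.6 and 25.3 in +/+ cells and 120 and 97.5 in -/- cells. For 8 macrophage and Langerhans cell markers the sums were 4.34 and 3.24 against 18.4 and 29.1. For 6 mast cell markers they were 1.17 and 1.48 against 8.57 and 8.78, and for 6 fibroblast markers 124 and 109 against 164 and 212. The sum without calcium in -/- cells lacks Col1a1, whose spot was an outlier there. The 6 keratinocyte markers summed to 301 and 296 in +/+ and to 240 and 202 in -/- cells. Lep, Ms4a2 and Cd207, which mark adipocytes, mast cells and Langerhans cells, were not well above background on any array, nor were the sebaceous markers Awat1 and Far2. The 6 sebaceous gland markers summed to no more than 0.698. In bulk RNA, fewer cells of a type and less RNA per cell cannot be told apart.

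Among the 29 genes, those for export and LXR response were higher in -/- than in +/+ cells. On the percentile scale most synthesis enzymes were slightly lower, as were most of all genes compared. Abcg1, a pump that exports cholesterol to lipoprotein particles, was 2.60-fold higher in -/- cells without calcium and 2.78-fold higher with it. Mylip, the ubiquitin ligase that sends lipoprotein receptors to lysosomes, was 1.75-fold and 2.80-fold higher. Without calcium, 1 of 29 members was at least 2-fold higher in -/- cells (Abcg1) and 0 were 2-fold lower, where 4.65% of the 21346 genes compared were 2-fold higher and 4.32% lower. With calcium, 2 of 29 were 2-fold higher (Abcg1 and Mylip) and 0 lower, against 6.56% and 3.05% of 21565 genes. On this percentile scale the shares lie near the background. Scaled to 4 basal keratinocyte genes in place of the percentile, 6 of 29 members were 2-fold higher in each condition, where 9.48% of all genes were without calcium and 16.95% with it. The median of the 29 genotype differences was -0.17 without calcium and -0.23 with it, beside -0.18 and -0.16 for all genes compared.

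**Figure D1:**
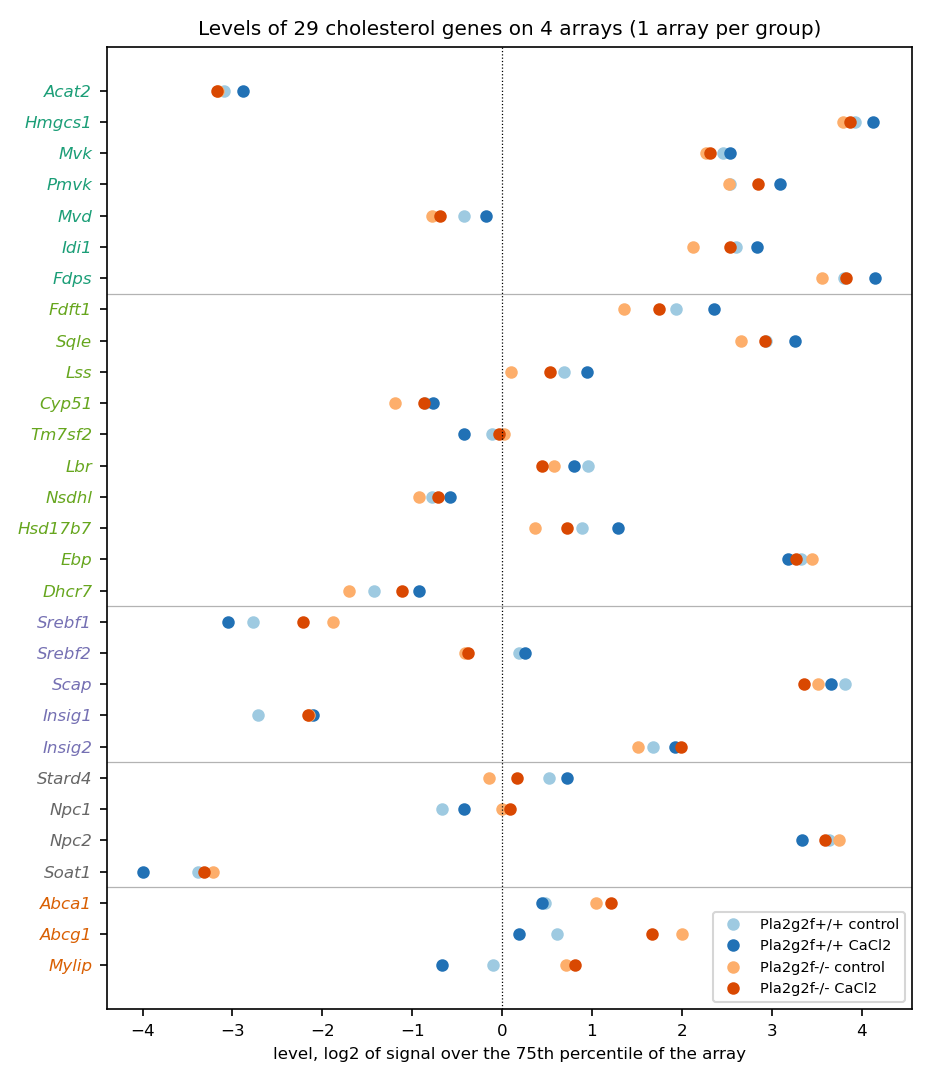
Level of each of the 29 genes on each of the 4 arrays, as log2 of the signal over the array's 75th percentile (1 point per array), grouped by role. Abcg1 stands furthest apart between genotypes, while most enzymes have their 4 points close together; positions of different genes on the axis are not comparable.

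The early enzymes, which make isoprenoid units and join them, were slightly brighter with calcium in both genotypes, except Acat2 in -/- cells. In -/- cells the values of Hmgcs1 (0.08), Mvk (0.04) and Mvd (0.09) were under the scanner's error of 0.20. The second Hmgcs1 probe was lower with calcium in +/+ cells (-0.15). Acat2, the cytosolic thiolase that joins acetyl-CoA units, was dim at -3.10, -2.88, -3.16 and -3.17. Hmgcs1, which makes HMG-CoA, read 3.93, 4.13, 3.79 and 3.87. Its probe maps to an unplaced piece of chromosome 13 in mm9, and its genotype differences of -0.14 and -0.26 are about the size of the scanner error.

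Mvk, mevalonate kinase, read 2.45, 2.53, 2.27 and 2.31, with no calcium difference above 0.08 for this probe on the percentile scale. Its second probe gave 0.05 in +/+ and 0.11 in -/- cells. Pmvk, the next kinase, read 2.54, 3.09, 2.52 and 2.84. Its calcium difference in +/+ cells, 0.55, was the highest of the enzymes there, while its genotype difference without calcium was -0.02. Mvd, which decarboxylates the product to isopentenyl diphosphate, read -0.42, -0.18, -0.78 and -0.69. On the percentile scale Mvd was lower in -/- cells by 0.35 without and 0.51 with calcium, where 32.1% and 16.3% of genes lay below it.

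Idi1, the isomerase that makes the starter unit, read 2.61, 2.84, 2.12 and 2.54. Fdps, which joins isoprenoid units to farnesyl diphosphate, read 3.80, 4.15, 3.56 and 3.83. On the percentile scale both were lowest in -/- cells without calcium and highest in +/+ cells with calcium. All 7 early enzymes lay above the median gene in their calcium response in both genotypes, with medians of 0.23 and 0.09.

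Of the 10 enzymes that make squalene and turn it into sterols, 8 were lower in -/- cells in each calcium condition on the percentile scale, as were all 7 early enzymes. On that scale 14411 of all 21346 genes compared were also lower without calcium, and 13595 of 21565 with it. Fdft1, squalene synthase, the first step committed to sterols, read 1.94, 2.35, 1.36 and 1.74. It was 1.49-fold lower in -/- cells without calcium and 1.53-fold lower with it. Sqle, the squalene epoxidase, read 2.94, 3.26, 2.66 and 2.93. Lss, which closes the rings to form lanosterol, read 0.69, 0.95, 0.10 and 0.54, and stood in -/- cells at 66.6% of +/+ without calcium and 75.1% with it. For the probes read for Fdft1 and Lss, the -/- level with calcium lay below the +/+ level without it on the percentile scale. Both gaps were smaller than the scanner's error.

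Cyp51, which demethylates lanosterol, read -0.86, -0.76, -1.19 and -0.87. Tm7sf2 and Lbr, both sterol reductases of the same step, did not move together. Tm7sf2 read -0.11, -0.42, 0.03 and -0.03 and was 0.39 higher in -/- cells with calcium. Lbr, which is also a nuclear envelope protein, read 0.95, 0.80, 0.58 and 0.44. On the percentile scale it was lower in -/- cells by 0.37 and 0.35, where 30.3% and 29.3% of genes lay below it. Across the scaling, background and probe choices its difference ran from -0.38 to 0.08 without calcium and from -0.42 to 0.25 with it. Tm7sf2, Lbr and Ebp were the 3 enzymes whose calcium value was below 0 in both genotypes. Of these values only that of Tm7sf2 in +/+ cells, -0.31, was larger than the scanner's error of 0.20. The others changed sign with the scaling or probe choice, and the second Tm7sf2 probe gave 0.02 in -/- cells.

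Nsdhl, part of the demethylation complex, read -0.78, -0.58, -0.92 and -0.71. Hsd17b7, the keto-reductase of that complex, read 0.89, 1.29, 0.37 and 0.72. On the percentile scale Hsd17b7 was 1.44-fold lower in -/- cells without calcium and 1.48-fold with it, where 19.6% and 13.0% of genes lay below it. Its 3 probes gave the same direction in both comparisons. Across the scaling, background and probe choices its difference ran from -0.62 to -0.06 without calcium and from -0.66 to 0.04 with it. Ebp, a sterol isomerase, read 3.33, 3.18, 3.45 and 3.27, with no difference beyond the scanner's error on the percentile scale. Its genotype difference stayed above 0 under all the scaling, background and probe choices. It ran from 0.12 to 0.58 without calcium and from 0.07 to 0.69 with it. Dhcr7, the last reductase before cholesterol, read -1.43, -0.92, -1.70 and -1.12. Dhcr7 had a calcium difference of 0.50 in +/+ and 0.59 in -/- cells, the highest of the enzymes in -/- cells, where the level with calcium was 150.3% of that without.

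Over all 17 enzymes the calcium response had a median of 0.23 in +/+ and 0.26 in -/- cells, beside -0.07 and -0.03 for all genes compared, and 14 of 17 lay above the median gene in each. The enzymes' median stayed above 0 under every setting tried, between 0.21 and 0.40 in +/+ and between 0.18 and 0.58 in -/- cells. With calcium, 0 of 29 members differed 2-fold in either direction in +/+ cells, where 2.47% of 21130 genes were 2-fold higher and 1.01% lower. In -/- cells the count was also 0 of 29 each way, against 2.99% higher and 0.602% lower of 21428 genes. At 1.5-fold, Insig1 was higher and Soat1 lower in +/+ cells, where 5.03% and 5.91% of genes were, and Dhcr7 was higher in -/- cells, where 7.74% were.

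In the genotype comparison, 15 of 17 enzymes had a value below 0 in each calcium condition, all but Tm7sf2 and Ebp. So had 14411 of all 21346 genes compared without calcium and 13595 of 21565 with it. The enzymes' median was -0.28 both without and with calcium; scaled to the basal keratinocyte genes Krt5, Krt14, Trp63 and Itga6 in place of the percentile, it was 0.18 and 0.32, so its sign depends on the scaling. That scaling moved the median of all genes to 0.28 and 0.45, and single enzymes turned sign with it. Relative to the median gene, which no such shift touches, 11 of 17 enzymes were lower in -/- cells without calcium and 13 of 17 with it. Without calcium 4 members were at least 1.5-fold higher and 3 lower (Lss, Stard4 and the probe read for Srebf2, whose second probe goes the other way), where 8.79% of genes were 1.5-fold higher and 16.1% lower. With calcium 5 were higher and 2 lower (Fdft1 and the same Srebf2 probe), where 12% and 12.4% were. Adipocyte, macrophage, mast cell and fibroblast sums were higher on the same -/- arrays and the keratinocyte sum lower, and their part in the enzymes' values was not tested.

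On the percentile scale, 2 sterol enzymes outside the list were lower in -/- cells as well. Msmo1, the sterol methyl oxidase, read 4.87, 4.93, 4.46 and 4.44, lower in -/- cells by 0.40 and 0.49. Sc5d, a sterol desaturase, read 1.75, 2.06, 1.38 and 1.74. Each of the 2 was lower in -/- than in +/+ cells in both calcium conditions. So were 14411 of all 21346 genes compared without calcium and 13595 of 21565 with it. Scaled to the basal keratinocyte genes, the median of all genes was 0.28 without and 0.45 with calcium. The direction of these enzymes under that scaling is not given here.

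The promoters of some of these genes are shown because synthesis enzymes are known to share binding sites for NF-Y, which reads CCAAT and acts beside SREBP. The sequences are the 250 bases before the RefSeq start on GRCm38.p6, with CCAAT on either strand (ATTGG on the other) and the E-box CACGTG in capitals. The first line is Mvk (chr5:114444019-114444268, plus strand), the second Hmgcs1 (chr13:119690101-119690350, plus), the third Hsd17b7 (chr1:169969206-169969455, minus) and the last Mylip (chr13:45389492-45389741, plus).
Mvk: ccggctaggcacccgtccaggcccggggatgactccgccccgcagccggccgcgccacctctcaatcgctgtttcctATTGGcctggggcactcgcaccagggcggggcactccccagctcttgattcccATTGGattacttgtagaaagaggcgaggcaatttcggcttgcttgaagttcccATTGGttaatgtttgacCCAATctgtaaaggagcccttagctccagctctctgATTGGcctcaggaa
Hmgcs1: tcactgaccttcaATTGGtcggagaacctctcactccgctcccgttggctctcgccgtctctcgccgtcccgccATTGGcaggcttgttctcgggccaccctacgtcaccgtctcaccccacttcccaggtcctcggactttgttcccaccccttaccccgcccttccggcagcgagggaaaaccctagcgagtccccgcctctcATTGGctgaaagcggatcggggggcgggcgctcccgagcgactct
Hsd17b7: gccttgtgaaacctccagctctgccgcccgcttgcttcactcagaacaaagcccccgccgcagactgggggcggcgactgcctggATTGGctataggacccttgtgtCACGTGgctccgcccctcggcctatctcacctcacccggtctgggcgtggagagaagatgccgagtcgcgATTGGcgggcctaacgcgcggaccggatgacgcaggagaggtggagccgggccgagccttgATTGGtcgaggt
Mylip: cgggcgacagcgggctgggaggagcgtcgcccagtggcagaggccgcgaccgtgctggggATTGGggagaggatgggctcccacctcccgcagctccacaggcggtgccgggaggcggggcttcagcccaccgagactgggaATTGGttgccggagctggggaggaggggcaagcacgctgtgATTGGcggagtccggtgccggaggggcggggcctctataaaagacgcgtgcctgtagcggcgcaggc
The Mvk promoter holds 5 such matches, the first 14 and the last 173 bases before the start. Hmgcs1 has 3, Hsd17b7 has 3 with an E-box 143 bases before the start, and Mylip, whose values differed from those of the enzymes, also has 3.

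Of the 29 genes, 23 have a promoter in the RefSeq table, in 31 windows that run from 250 bases before to 50 after a start. CCAAT was found in 67.7% of these windows and in 37.4% of all 32851, and 13 of the 14 enzymes with a promoter there had it. GGGCGG, the letters read by Sp1, was in 83.9% of the members' windows and 35.7% of all. The E-box was in 19.4% of the members' windows and 7.15% of all, and 5 of the 23 genes had it. A gene was counted where any of its windows had a match, while the shares of all are per window and not per gene. Exact copies of the classical sterol regulatory element and of the LXR direct repeat were in 0 of the 31 windows, and in 0.0913% and 0.0152% of all. Both strands were searched; a match is a run of letters and not evidence of binding, and these windows are short.

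The genes that control synthesis gave mixed values. Srebf1, whose SREBP-1 product mainly drives fatty acid synthesis and whose promoter LXR activates, read -2.77, -3.05, -1.88 and -2.21. It was 1.86-fold higher in -/- cells without calcium and 1.79-fold with it, above 94.6% and 91.8% of the genes compared. Scap, the sterol sensor that escorts SREBP, read 3.82, 3.66, 3.52 and 3.36. On the percentile scale it was lower in -/- cells by 0.30 in both conditions, where 37.0% and 35.0% of genes lay below it. Across the scaling, background and probe choices its difference ran from -0.30 to 0.16 without calcium and from -0.32 to 0.30 with it.

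Insig1, an INSIG protein whose gene is itself an SREBP target, read -2.71, -2.11, -2.14 and -2.16. Only the +/+ array without calcium was low, and the other 3 levels lay within 0.05 of each other. Its calcium difference was 0.60 in +/+ cells, 1.52-fold, and -0.02 in -/- cells. Insig2, its relative, read 1.68, 1.92, 1.51 and 1.99, with genotype differences of -0.17 and 0.06.

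Srebf2, whose SREBP-2 product drives the cholesterol enzymes, had a pair of probes that gave opposite answers. The probe read for the gene had levels of 0.19, 0.26, -0.41 and -0.38, lower in -/- cells by 0.60 without and 0.63 with calcium, 1.51-fold and 1.55-fold. The dimmer probe had levels of -2.26, -2.32, -1.51 and -0.91, higher in -/- cells by 0.75 and 1.40. Their genotype differences stood 1.35 and 2.03 apart, with a scanner error of 0.29. The first 30 of each probe's 60 bases are shown so that the pair can be placed. On mm9 the read probe lies at chr15:82034765-82034824 and the dimmer one at chr15:82030068-82030127, both on the plus strand, starting at bases 3944 and 3011 of the transcript.
Srebf2 read probe: aactaggtctttgcaccagagagcattttg
Srebf2 dimmer probe: atccagctgttcacctgtgacctgctactg
Since the pair disagrees, no genotype direction is given for Srebf2 as a gene. The exons these probes lie in were not looked up, as no annotation of mm9 was used here.

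**Figure D2:**
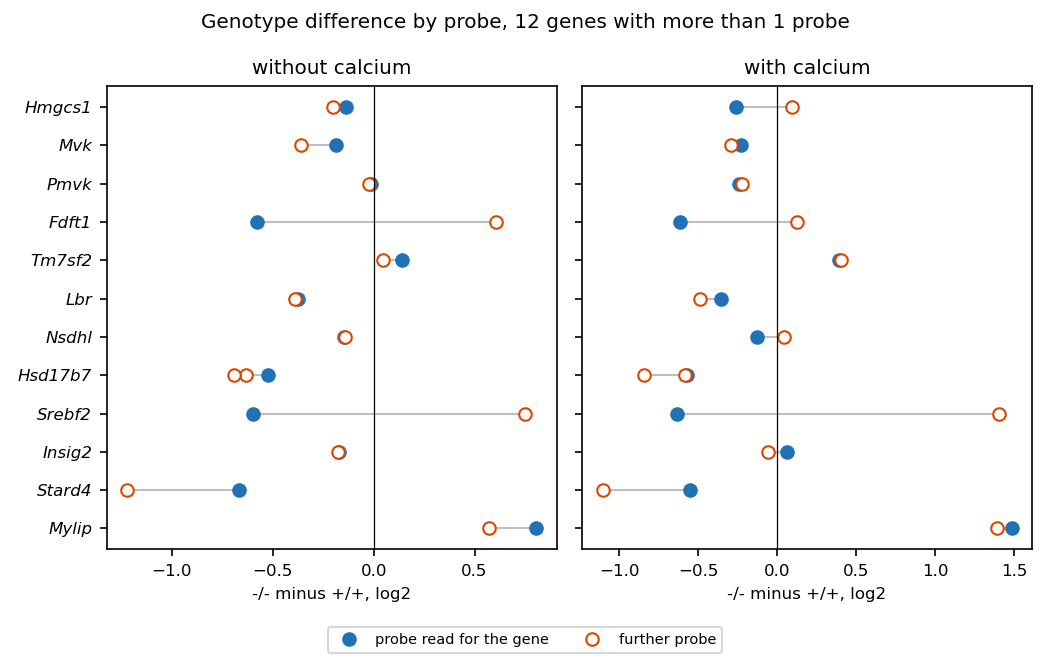
Difference between -/- and +/+ cells (log2) for each probe of the 12 members with more than 1 probe, without calcium on the left and with it on the right; filled points are the probes read for the gene and open points the further ones. Most pairs lie close together, while those of Srebf2 and Fdft1 lie on opposite sides of 0 in both panels, and those of Hmgcs1, Nsdhl and Insig2 do so with calcium, close to 0.

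In all, 12 members had further probes, 13 of them. Without calcium 11 of the 13 gave a genotype difference of the same sign as the probe read, and with calcium 8 did, all but those of Srebf2, Fdft1, Hmgcs1, Nsdhl and Insig2. The further Fdft1 probe, well above background on only 2 arrays, had the opposite sign. The 2 further Hsd17b7 probes were lower in -/- cells too. For the calcium response, 10 of the 13 had the sign of the probe read in +/+ cells and 11 of the 13 in -/- cells.

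Genes for moving and storing cholesterol inside the cell did not all differ in the same direction between genotypes. Stard4, a soluble carrier of cholesterol between membranes and an SREBP target, read 0.52, 0.72, -0.14 and 0.16, 1.59-fold and 1.47-fold lower in -/- cells. Its second probe read -2.12, -1.58, -3.35 and -2.69 and stood in -/- cells at 42.9% and 46.5% of +/+. Both Stard4 probes were lower in -/- cells in each calcium condition on the percentile scale. The difference of the probe read lay above those of 12.7% of genes without calcium and 13.9% with it. Across the scaling, background and probe choices it ran from -0.94 to -0.21 without calcium and from -0.83 to 0.05 with it.

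Npc1, the late endosomal membrane protein that releases lipoprotein cholesterol, read -0.67, -0.43, -0.00 and 0.09, 1.58-fold and 1.43-fold higher in -/- cells. Npc2, its soluble partner in the lysosome, read 3.63, 3.34, 3.75 and 3.59, with genotype differences of 0.12 and 0.26. Both proteins serve lysosomes, in which macrophages are rich, and the macrophage marker sums were 4.34 and 3.24 in +/+ against 18.4 and 29.1 in -/- cells; their part in these values was not tested.

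Soat1, which esterifies cholesterol for storage, was dim at -3.38, -3.99, -3.21 and -3.32. It was 1.53-fold lower with calcium in +/+ cells, and the single low array made its genotype difference 0.67 with calcium against 0.17 without.

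The export genes and Mylip, which LXR is known to activate, were higher in -/- cells in both calcium conditions and under every scaling tried. Abcg1 read 0.62, 0.19, 1.998 and 1.66, so that both -/- arrays stood more than 1 log2 unit above both +/+ arrays. The differences of 1.38 and 1.48 were above those of 97.1% and 96.2% of the genes compared. Abcg1 was lower with calcium in both genotypes, by 0.43 and 0.33. Abca1, the pump that loads cholesterol onto lipid-poor apolipoprotein, read 0.48, 0.45, 1.04 and 1.21. It was 1.47-fold higher in -/- cells without calcium and 1.70-fold with it, with little calcium difference in either genotype.

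Mylip read -0.10, -0.67, 0.71 and 0.81. It was lower with calcium in +/+ cells by 0.57 and near level in -/- cells, at 0.11, so its genotype difference went from 0.81 without calcium to 1.48 with it. A dimmer second probe, at -4.99, -5.70, -4.42 and -4.30, gave 0.57 and 1.39. Both probes are shown because they agree where those of Srebf2 do not; the read one lies at chr13:45506979-45507038 and the dimmer one at chr13:45503808-45503867, on the plus strand of mm9.
Mylip read probe: tgtttccatattctaagttttcacccccac
Mylip dimmer probe: acattaaccttggtaagaaatacgtcttcg
Abca1 and Abcg1 are also well known in macrophages, where they unload cholesterol. All 7 macrophage markers that could be compared were 2-fold higher in -/- cells in both calcium conditions, and all 5 such adipocyte markers were as well; their part in the Abcg1, Abca1, Mylip and Srebf1 values was not tested.

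**Figure D3:**
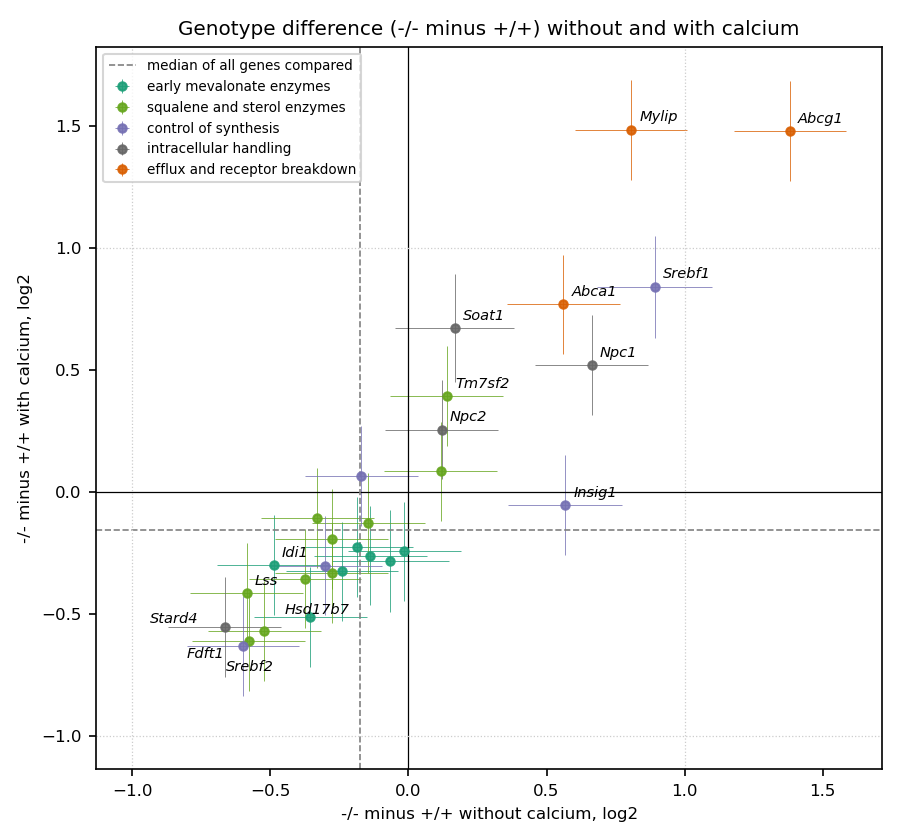
Genotype difference of each member (-/- minus +/+, log2) without calcium on the horizontal axis and with calcium on the vertical axis; colours give roles, bars the scanner's error and dashed lines the median of all genes compared. Abcg1, Mylip, Srebf1, Abca1 and Npc1 lie at the upper right, and most enzymes lie below and to the left of 0 on this scale, around the dashed lines.

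The genotype difference was similar without and with calcium, which are comparisons that share no array. The labels do not say whether both calcium conditions of a genotype came from the same pool of mice. Across all 19227 genes well above background on the 4 arrays, Pearson's r was 0.839 and Spearman's rho 0.731, and 16299 had the same sign. Across the 29 members r was 0.91 and rho 0.92, and 27 of 29 had the same sign. The exceptions were Insig1 and Insig2. Genes are not independent replicates, so these values only describe the arrays.

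The calcium responses of the 2 genotypes were less alike, with r and rho of 0.69 and the same sign for 25 of 29 members. Across all genes r was 0.618 and rho 0.361, and 12589 of 19227 had the same sign. The 4 members of opposite sign were Acat2, Insig1, Mylip and Abca1. For the difference of the responses (-/- minus +/+), 0 of 29 members reached 2-fold, where 1.91% of 19227 genes were 2-fold higher and 0.629% lower. The members' median was -0.00 beside 0.02 for all genes. Past 1.5-fold lay Mylip at 0.68 and Insig1 at -0.62, each with a scanner error of 0.29, and 7.08% and 2.48% of genes lay past it. Soat1 was next at 0.50.

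**Figure D4:**
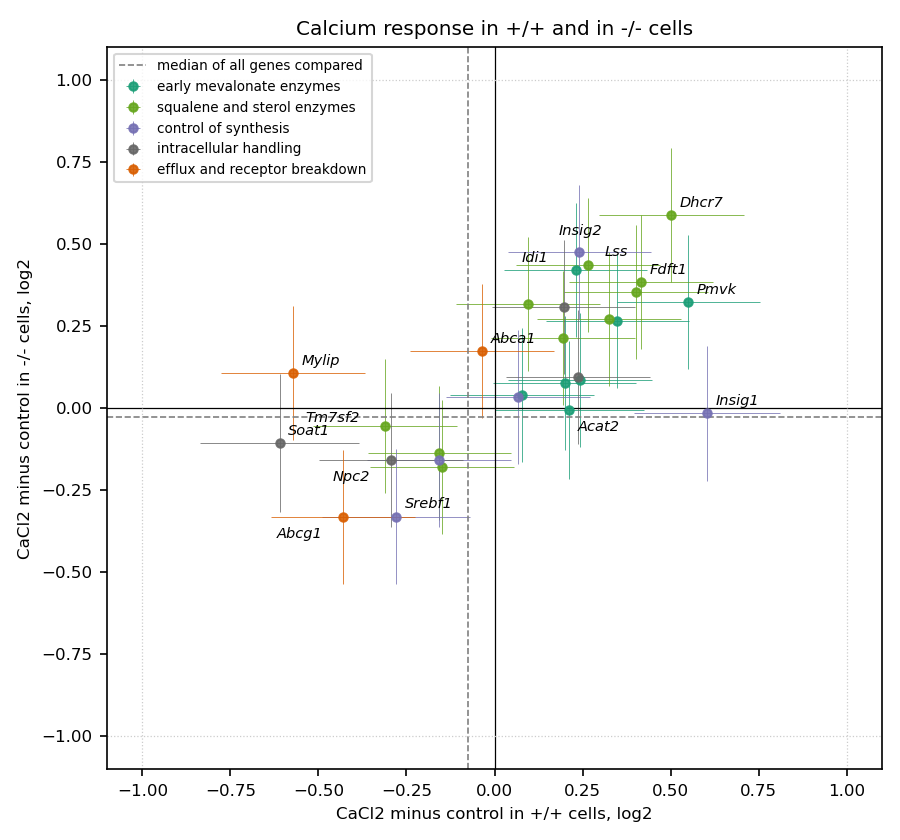
Calcium response of each member (with minus without CaCl2, log2) in +/+ cells on the horizontal axis and in -/- cells on the vertical axis; colours give roles, bars the scanner's error and dashed lines the median of all genes compared. Dhcr7, Pmvk and Fdft1 lie at the upper right, Insig1 lies at the right near 0 on the vertical axis, and Mylip lies at the left just above it.

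Of 22 further genes of the pathway, all were on the array. Without calcium 2 of 22 were 2-fold higher in -/- cells and 1 lower, and with calcium 3 were higher and 0 lower, beside 4.65% and 4.32% of all genes without calcium and 6.56% and 3.05% with it. Nr1h3, which encodes LXR alpha, read -1.72, -1.83, 0.23 and 0.47, 3.86-fold and 4.93-fold higher. Its second probe gave 1.99 and 2.30, close to the 1.95 and 2.30 of the probe read. LXR alpha is abundant in macrophages and adipocytes, whose marker sums are given above, and their part in this value was not tested.

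Cyp7b1, an oxysterol hydroxylase that inactivates LXR ligands, read -1.65, -2.94, 0.46 and 0.73. It was 4.33-fold higher in -/- cells without calcium and 12.7-fold with it, after a 2.44-fold lower value with calcium in +/+ cells. Lipa, the lysosomal lipase that frees cholesterol from its esters, read -0.32, -0.80, 0.33 and 0.33, and was 2.19-fold higher in -/- cells with calcium. Ch25h, which makes an oxysterol, read -0.60, -0.73, -1.61 and -0.52. Only the -/- array without calcium was low, which gives a 2.01-fold lower genotype value there and a 2.13-fold calcium difference in -/- cells.

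**Figure D5:**
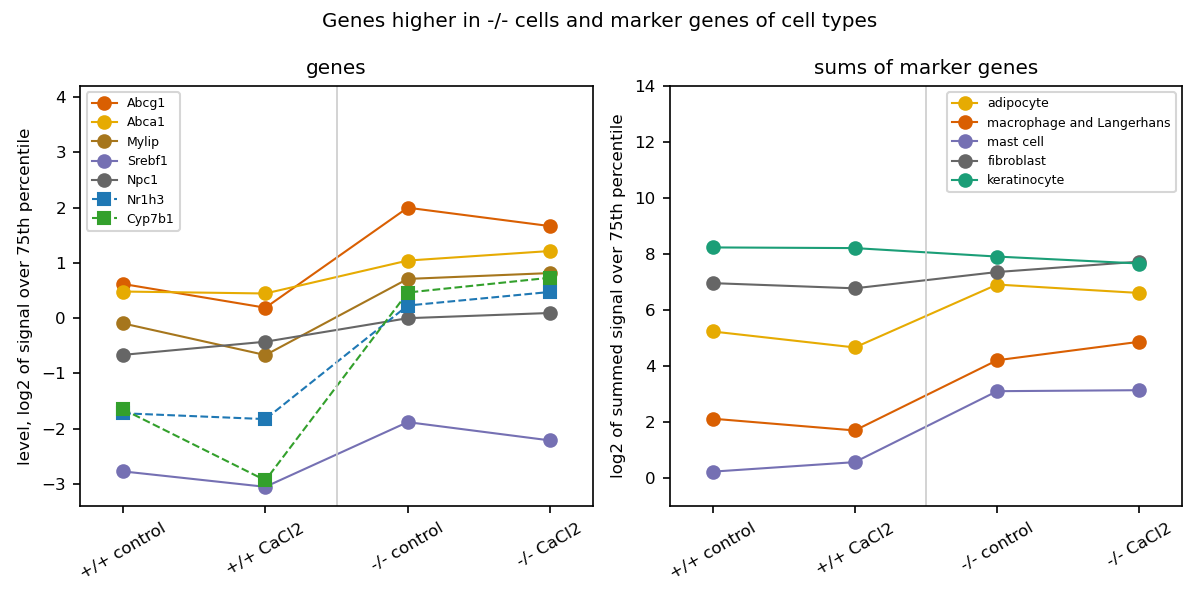
Levels of 5 members and of Nr1h3 and Cyp7b1 on the 4 arrays (left, log2 of the signal over the array's 75th percentile) and log2 of the summed signal of 5 cell type marker lists (right), with 1 point per array. The genes at the left and the adipocyte, macrophage and mast cell sums at the right are higher on both -/- arrays than on either +/+ array, and the keratinocyte sum is lower.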

How the data were processed

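The deposited scanner files hold 1 spot intensity per feature, made by the authors with Agilent Feature Extraction 11.5.1.1, per the submitters' processing notes, from 200 ng of Cy3-labelled total RNA. The deposited value table holds a ratio to the array's 75th percentile: it equalled each processed intensity over that percentile, with a largest relative difference of 2.31e-07 over 44397 rows, and its column medians were between 0.0612 and 0.0660, uncentred. Here log2 of the processed intensity minus log2 of the 75th percentile over non-control spots was used, without outlier spots (105 to 116 an array). Spots of a probe were averaged, a gene was read from its brightest probe, and it was compared where 1 or more of the arrays read that probe well above background, with a lower bound for a dim array. Accessions gave current names for 27508 of 39429 probes through RefSeq. A difference counts at 2-fold. All 29 members are named; of 22 other pathway genes, those at 2-fold and 2 sterol enzymes are; 1 further item is not reported here. Members and lists were chosen with earlier results of these data known. The steps were tested on simulated data. Alternatives were normexp background correction (limma 3.58.1, offset 50), 3 other scalings, 2 filters, the mean of probes, the value table, and 1.5-fold and 3-fold thresholds. Python 3.11.15, numpy 2.4.6, pandas 2.3.3 and R 4.3.3 were used. Precision is limited by 1 array per group.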

Additional observations from a re-analysis of the deposited data

Results flagged for a closer look

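A pair of members moved in opposite directions with calcium in the 2 genotypes. Insig1 was higher with calcium in +/+ cells (0.60) and slightly lower in -/- cells (-0.02), a difference of responses of -0.62. Mylip was lower with calcium in +/+ cells (-0.57) and slightly higher in -/- cells (0.11), a difference of responses of 0.68. Each group has 1 array, so neither difference was tested, and in -/- cells both changes were smaller than the scanner's error of 0.20.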

How the results depend on the processing

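No paired analysis was possible because each group has 1 array, and no replicate could be left out for the same reason. At 1.5-fold in place of 2-fold, 1 member was higher and 1 lower with calcium in +/+ cells, 1 was higher in -/- cells, 4 were higher and 3 lower between genotypes without calcium, 5 and 2 with calcium, and 1 and 1 for the difference of responses. At 3-fold, 0 were higher between genotypes in either condition. Scaled to basal keratinocyte genes, 6 members were 2-fold higher in -/- cells without and 6 with calcium (beside 9.48% and 16.95% of all genes), the members' median genotype difference was 0.29 and 0.38, and their median calcium response in -/- cells was 0.40. No member at 2-fold reversed. Counts over all genes moved more: 2-fold higher genotype differences numbered 655 to 2024 without calcium (992 as reported) and 950 to 3656 with it (1414), and lower ones 188 to 2982 (922) and 168 to 1361 (658). Calcium counts ranged from 328 to 886 higher and 62 to 1097 lower in +/+ cells (522 and 214), from 319 to 1919 and 26 to 447 in -/- cells (640 and 129), and from 115 to 3098 and 67 to 746 for the difference of responses (367 and 121). Of the 2-fold genotype differences without calcium 51.8% were higher in -/- cells, against 90.5% when Krt5, Krt14, Trp63 and Itga6 set the scale, 74.4% with quantile scaling and 77.7% with normexp; with calcium the share went from 68.2% to 95.6% under the former. The sign of the genotype difference held under the 7 scaling, background and probe choices for 14 of 29 members without and 11 with calcium. The Abcg1 difference stayed between 1.37 and 1.84 and between 1.46 and 2.08. Scanner error limits all differences under about 0.20, and spread between cultures is unknown.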
